A study of Mus musculus with 16 samples.

Results

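The difference between visceral adipose tissue (VAT) and subcutaneous adipose tissue (SAT) in how they responded to prolonged high-fat feeding was measured in all 16 of the 16 RNA sequencing libraries of the series. For each transcript it is the obese minus lean change in VAT minus the obese minus lean change in SAT, on the log2 scale. A positive value marks a transcript that rose more or fell less in VAT than in SAT, or rose in VAT and fell in SAT, and a negative value marks the reverse. The libraries come from 8 male wild-type C57BL/6J mice (C57Bl/6 in the labels), 4 lean and 4 obese, and each mouse gave 1 library of inguinal SAT, with the left and right depots combined, and 1 library of mesenteric VAT. The lean mice ate a normal laboratory diet, and the obese mice ate diet TD88137, with 42% of its calories from fat and 0.2% cholesterol, from 10 weeks of age. Both diets ran for 12 to 14 months, and visible vasculature was removed from the tissue. The replicates are separate mice, and diet was compared over mice throughout.

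White adipocytes store fatty acids as triglyceride, which they take up from the circulation or make from glucose and acetate by de novo lipogenesis. Enzymes of that route turn citrate into acetyl-CoA, build palmitate from it with NADPH, and elongate and desaturate the product. Adipose tissue also holds macrophages, lymphocytes, endothelial cells and fibroblasts, and in obesity macrophages that take up lipid and display antigen on MHC class II molecules are known to gather there, above all in visceral depots. In bulk tissue, a change in the number of cells of a type and a change in the RNA each cell makes cannot be told apart.

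The libraries held 4604460 to 16614407 counts, apart from 2 VAT libraries with fewer, at 1256082 (lean mouse 1) and 2247737 (obese mouse 1). The tissue labels matched the cell markers: summed mesothelial markers stood at 281 to 691 CPM (counts scaled to the library total) in VAT and at 0.759 to 1.83 CPM in SAT, and summed adipocyte markers at 15430 to 57740 CPM in every library. One transcript, Scd1 (a desaturase that makes monounsaturated fatty acids), took 23.7% to 25.7% of all counts in obese SAT, 12.5% to 18.5% in obese VAT and 3.28% to 14.0% in the lean libraries. Levels below are CPM after scaling with edgeR's TMM factors, listed for mice 1 to 4 of each diet, and tests are edgeR's quasi-likelihood test with Benjamini-Hochberg adjustment, where a transcript is called at an adjusted p below 0.05. A gene is represented by its transcript of highest mean level.

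Of 13288 transcripts tested, 288 (2.17%) were called for the difference, 117 (0.88%) higher in VAT and 171 (1.29%) lower in VAT. Counted once per gene these were 261 of 10290 genes (2.54%). The VAT minus SAT values of the 4 lean and the 4 obese mice did not overlap for 260 of the 288, beside 9.28% of all transcripts tested (4.84% with obese mice above lean mice and 4.44% below). The calls were made on the same difference, so this is a description of them and no further support. The calls were then divided by which tissues passed adjusted p below 0.05 for their own diet response. In 117 of them VAT alone passed, 63 with a difference above 0 and 54 with one below 0. In 106 SAT alone passed, and here 82 of the differences lay below 0. Here and below, a change in 1 tissue alone means that the other did not pass, and the other may still have moved. Of the 288, 180 had estimates of opposite sign in SAT and VAT. Both tissues passed in 43, of which 14 went in opposite directions and 29 in the same direction with unequal size. In the remaining 22 neither tissue passed by itself. Same and opposite directions were counted over all transcripts that passed in both tissues. There were 518 of these, 504 moved the same way, and 5.75% of the 504 were called for a difference in size. The total of 288 became 128 without the mouse block and 134 to 403 with 1 mouse left out, at 134 without obese mouse 4, 152 without lean mouse 3 and 185 without lean mouse 2. The 14 opposite transcripts became 8 without lean mouse 2 or obese mouse 3. The split by direction depended on scaling: with library totals alone in place of TMM factors, 369 were higher and 104 lower in VAT, and the median difference of all transcripts moved from 0.03 to 0.23.

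**Figure D1:**
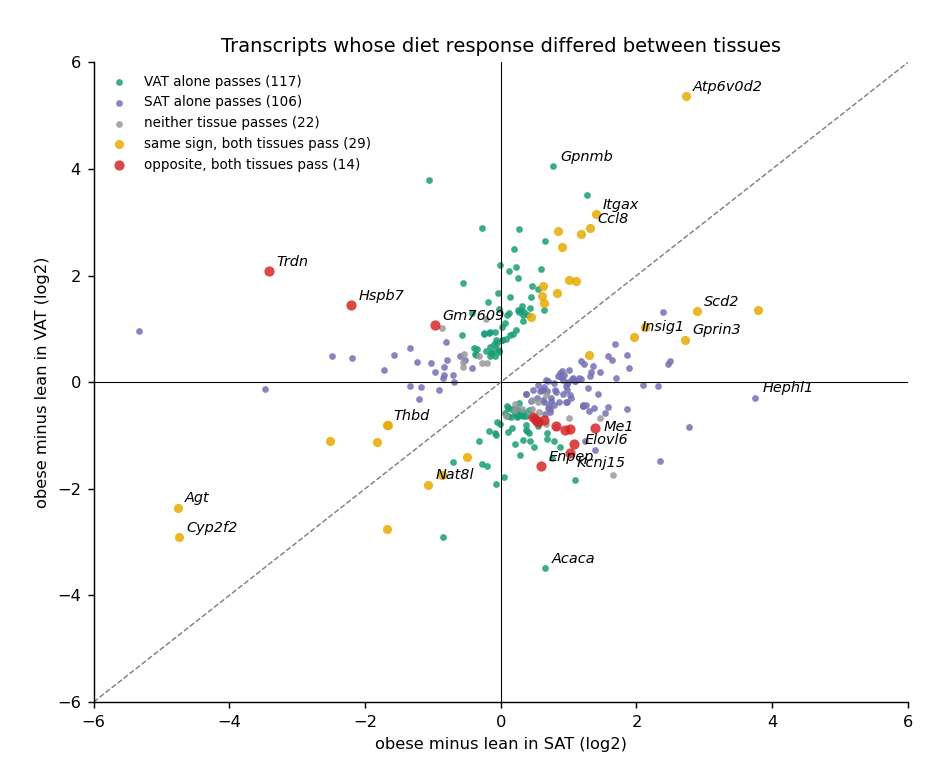
Each point is 1 of the 288 called transcripts, with its obese minus lean log2 change in SAT on the horizontal axis and in VAT on the vertical axis, colored by which tissues passed the test. Points far from the dashed line of equal change are the largest differences, and the 14 transcripts that changed in opposite directions lie in the upper left (3) and the lower right (11).

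Of the 14 opposite genes, 3 supply or extend newly made fatty acids, and all of these rose in obese SAT and fell in obese VAT. Elovl6, the enzyme that elongates palmitate to stearate, is on chromosome 3 (chr3:129326004-129432144, GRCm39). Its level in SAT was 103, 155, 102 and 77.8 CPM in the lean and 280.1, 237, 186 and 222 CPM in the obese mice. In VAT it was at 417, 422, 357 and 255 CPM in the lean and 196, 184, 130.3 and 139 CPM in the obese mice. The libraries of the diets did not overlap in either tissue, and the order of the tissues turned over, with VAT above SAT in every lean mouse and below it in every obese mouse. The log2 change was 1.08 (adjusted p = 0.000666) in SAT and -1.16 (adjusted p = 0.000294) in VAT, a difference of -2.26 ± 0.16 (SE; adjusted p = 6.24e-09). Me1, cytosolic malic enzyme, makes NADPH for this pathway (chr9:86462646-86578104). It stood at 39.3, 52.5, 48.4 and 43.2 CPM in the lean and 134, 139, 96.9 and 109.6 CPM in the obese mice in SAT. In VAT it stood at 113, 72.1, 81.3 and 74.1 CPM in the lean and 69.8, 50.3, 37.7 and 31.9 CPM in the obese mice. Its diets did not overlap in either tissue and its changes were 1.39 (adjusted p = 5.92e-05) in SAT and -0.85 (adjusted p = 0.00588) in VAT, which differed by -2.26 ± 0.22 (SE; adjusted p = 1.24e-06). Slc25a1, the carrier that brings citrate out of mitochondria (chr16:17743075-17746245), changed less. Its SAT levels were 438, 488, 539 and 565 CPM in the lean and 747, 904, 648 and 681 CPM in the obese mice. Its VAT levels were 806, 764, 701 and 629.9 CPM in the lean and 408, 473, 462 and 382 CPM in the obese mice. The changes were 0.55 (adjusted p = 0.00494) and -0.75 (adjusted p = 0.000304), with a difference of -1.30 ± 0.16 (SE; adjusted p = 7.83e-05).

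Enpep encodes aminopeptidase A, which cuts angiotensin II to angiotensin III, and starts on the same chromosome as Elovl6 (chr3:129062824-129126369), with 199634 bases between the genes. In SAT it was measured at 116, 138, 115 and 134 CPM in the lean and 187, 172, 206 and 195 CPM in the obese mice. In VAT the levels stood at 867, 1005, 1122 and 833 CPM in the lean and 343, 352, 354 and 235 CPM in the obese mice. The diets were apart in both tissues. The change was 0.60 (adjusted p = 0.00498) in SAT and -1.58 (adjusted p = 7.39e-08) in VAT, and the difference was -2.18 ± 0.18 (SE; adjusted p = 8.79e-08). Adipor2, a receptor for adiponectin, went from 93.04 ± 13.4 to 145 ± 17.3 CPM (mean ± SD, n = 4) in SAT. In VAT it went from 125 ± 14.8 to 76.7 ± 22.1 CPM (n = 4). Its changes of 0.64 and -0.70 both passed, and they differed by -1.38 ± 0.19 (SE; adjusted p = 0.000193). Megf9, a transmembrane protein with EGF-like repeats, gave 0.47 (adjusted p = 0.0455) in SAT and -0.65 (adjusted p = 0.00671) in VAT, and the difference was -1.17 ± 0.19 (SE; adjusted p = 0.00169). Dusp4, a phosphatase that switches off MAP kinases, gave 0.81 (adjusted p = 0.0416) and -0.81 (adjusted p = 0.0457), with a difference of -1.61 ± 0.28 (SE; adjusted p = 0.00207). For Megf9 the diets were apart in both tissues, while for Dusp4 they overlapped in VAT.

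The other 4 opposite genes that were lower in VAT stood at low levels. Utrn, the dystrophin relative utrophin, had a mean of 7.03 ± 1.86 CPM in lean and 14.4 ± 2.58 CPM in obese SAT (SD, n = 4), and 11.02 ± 1.47 and 6.20 ± 2.36 CPM in VAT (n = 4). Its difference was -1.89 ± 0.36 (SE; adjusted p = 0.00430). Kcnj15, an inwardly rectifying potassium channel, was at 2.56, 2.53, 2.76 and 1.49 CPM in the lean and 5.15, 4.24, 6.28 and 3.78 CPM in the obese mice in SAT. Its VAT libraries held 5.76, 4.43, 4.72 and 1.77 CPM in the lean and 1.92, 2.15, 1.44 and 0.942 CPM in the obese mice, where the diets overlapped, and the difference was -2.40 ± 0.43 (SE; adjusted p = 0.00317). The transcripts counted for Utrn and Kcnj15 are 1 of 15 and 1 of 23 entries of their genes, and with all entries of a gene summed the differences were -1.69 and -2.30. Pcdhb22 and Pcdhga8 belong to the clustered protocadherins, a family of cell adhesion proteins, and differed by -1.24 ± 0.23 (SE; adjusted p = 0.00378) and -1.89 ± 0.37 (SE; adjusted p = 0.00651). The diets overlapped in VAT for Pcdhga8 and in no tissue for Pcdhb22.

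Only 3 genes changed the opposite way, down in obese SAT and up in obese VAT, and 2 of them are known from muscle. Trdn encodes triadin, which ties calsequestrin to the calcium release channel of the sarcoplasmic reticulum (chr10:32956550-33356376). Its level was 63.3, 12.9, 29.0 and 28.9 CPM in the lean and 2.23, 2.65, 3.31 and 4.40 CPM in the obese mice in SAT. VAT levels were 1.28, 1.38, 2.04 and 2.43 CPM in the lean and 9.97, 12.8, 6.04 and 3.43 CPM in the obese mice. The diets did not overlap in either tissue, and VAT lay below SAT in 4 of 4 lean mice and above it in 3 of 4 obese mice. The changes were -3.41 (adjusted p = 9.24e-06) in SAT and 2.08 (adjusted p = 0.00494) in VAT, and they differed by 4.93 ± 0.47 (SE; adjusted p = 1.24e-06). Hspb7, a small heat shock protein of heart and skeletal muscle (chr4:141148090-141152625), was at 158, 76.8, 29.9 and 48.7 CPM in the lean and 20.7, 18.5, 15.9 and 13.3 CPM in the obese mice in SAT. In VAT the values were 24.98, 17.5, 25.3 and 43.4 CPM in the lean and 93.5, 93.2, 57.8 and 60.9 CPM in the obese mice. Its difference of 3.36 ± 0.38 (SE; adjusted p = 1.32e-05) came from a change of -2.20 in SAT and 1.44 in VAT. The third, the predicted gene Gm7609, was at 2.23, 2.81, 2.48 and 5.32 CPM in the lean and 1.92, 0.848, 1.86 and 1.39 CPM in the obese mice in SAT. The VAT libraries gave 8.33, 10.3, 8.90 and 5.74 CPM in the lean and 19.9, 15.2, 20.7 and 14.99 CPM in the obese mice, and its difference was 2.13 ± 0.40 (SE; adjusted p = 0.00390).

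Skeletal muscle markers were measured beside Trdn and Hspb7. Of 24 listed, 5 were at 0 in every library (Ttn, Myh7, Ryr1, Xirp2 and Tnnt3), 7 passed the filter on low counts, and 0 of those 7 were called by edgeR, beside 2.54% of all genes. Their summed level was 45.0 to 73.0 CPM in lean SAT, 49.2 to 77.1 CPM in obese SAT, 40.1 to 53.8 CPM in lean VAT and 53.3 to 56.3 CPM in obese VAT. Tnnc2 and Myl1, of the muscle contractile apparatus, fell in SAT as Trdn and Hspb7 did, while their VAT changes of -0.90 for Myl1 and -0.67 for Tnnc2 lay below 0 and did not pass. Tnnc2 was at 2.77 to 7.82 CPM in lean and 0.923 to 1.10 CPM in obese SAT, with a difference of 1.68 (adjusted p = 0.121), and was called by limma voom. Myl1 changed by -1.01 in SAT (adjusted p = 0.0418), with a difference of 0.11 (adjusted p = 0.95). Casq1, Eno3 and Pygm made up most of the sum, and Casq1 rose in both tissues. The part of muscle RNA in the values of Trdn and Hspb7 was not tested. An entry at 0 does not show that a gene is absent, since the endothelial genes Pecam1 and Robo4 were also at 0 in all 16 libraries. The defining genes Ckm, Acta1 and Myh4 reached at most 1.15, 0.477 and 0.154 CPM. Of the 12 tested genes of the sarcoplasmic reticulum and small heat shock list, Trdn and Hspb7 were the 2 called, beside 1.08% of all genes called higher. The median difference of the list was -0.05. Both genes were already named by the study from these same data, so the 2 calls are no result about the list.

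**Figure D2:**
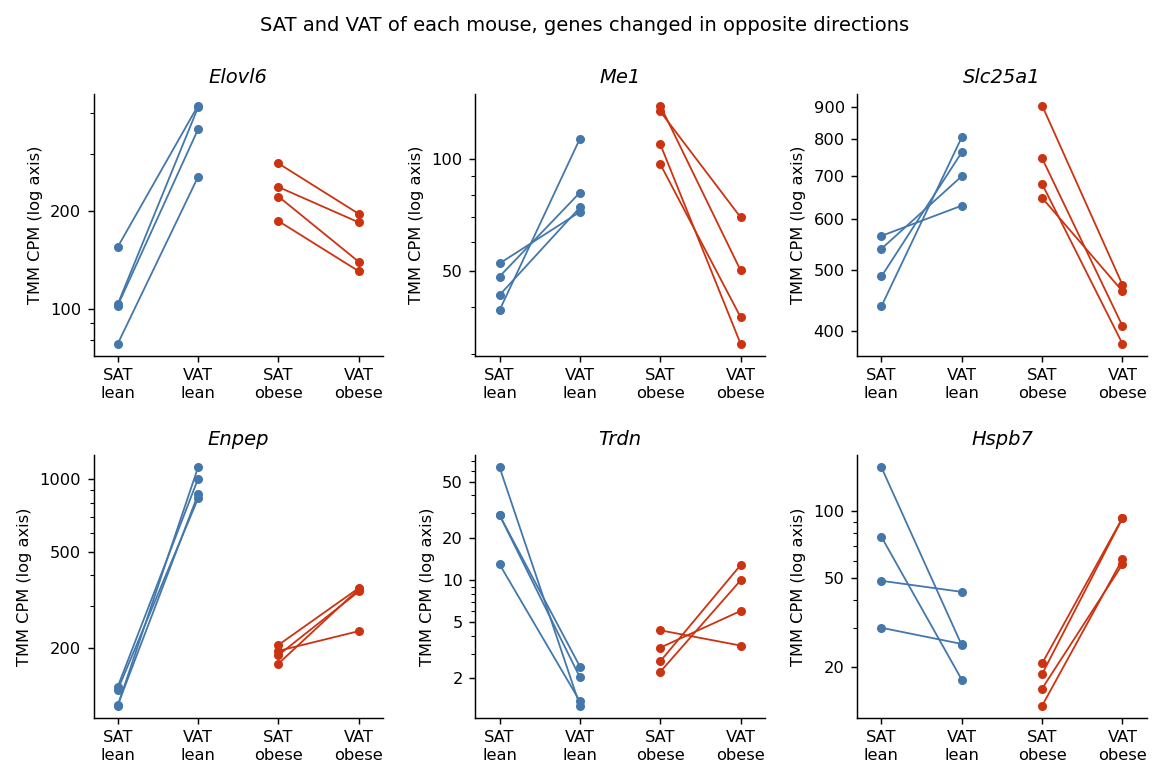
Levels of 6 of the opposite genes in each library (TMM CPM, log axis), with a line joining the SAT and VAT of 1 mouse, lean in blue and obese in red. The lines of Elovl6 and Me1 slope up in the 4 lean mice and down in the 4 obese mice, and those of Hspb7 do the reverse.

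Fatty acid synthesis had the most calls among the 41 gene lists. Of 22 tested genes of the fatty acid synthesis and NADPH list, 10 were called lower in VAT and 0 higher, beside 1.46% of all genes called lower. Of the 22, 9 rose and 3 fell in SAT, while 2 rose and 10 fell in VAT. Of all genes, 6.89% rose and 5.03% fell in SAT, and 7.99% rose and 4.39% fell in VAT. The median change was 0.55 in SAT and -0.65 in VAT, and the median difference was -0.83, beside 0.04 over all 10290 genes. Estimates pointed in opposite directions for 12 of the 22 (54.5%), beside 36.8% of all genes. In each mouse the median VAT minus SAT value of the list lay at 0.56 to 0.98 in the lean mice and at -0.53 to -0.08 in the obese mice, so that the list as a whole turned from higher in VAT to lower in VAT. Summed adipocyte markers were 41010 to 57740 CPM in lean and 37020 to 52110 CPM in obese SAT, and 21600 to 34410 CPM in lean and 15430 to 26210 CPM in obese VAT. Of 11 adipocyte markers tested, 5 fell and 0 rose in VAT, and their mouse medians of VAT minus SAT also did not overlap, at -0.36 to -0.09 in lean and -0.78 to -0.53 in obese mice. Their part in the result was not tested.

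Beside Me1, Slc25a1 and Elovl6, which changed in opposite directions, the called genes fell into 3 patterns. Acss2, which makes acetyl-CoA from acetate, and Scd2, a desaturase, rose most in obese SAT. Acss2 was at 191, 257, 205 and 178 CPM in the lean and 1139, 768, 549 and 615 CPM in the obese mice in SAT. VAT held 535, 571, 576 and 454 CPM in the lean and 687, 754, 595 and 549 CPM in the obese mice, where the diets overlapped. Its change was 1.88 (adjusted p = 4.83e-07) in SAT and 0.27 (adjusted p = 0.372) in VAT, with a difference of -1.57 ± 0.17 (SE; adjusted p = 8.27e-06). Scd2 rose in both, by 2.89 in SAT and by 1.34 in VAT, and the difference was -1.61 ± 0.16 (SE; adjusted p = 1.24e-06). In the second pattern VAT alone fell. Fasn, fatty acid synthase (chr11:120696672-120715995), was at 84.5, 102, 69.8 and 55.9 CPM in the lean and 129, 106, 64.8 and 62.2 CPM in the obese mice in SAT, where the diets overlapped. In VAT it was at 179, 184, 157 and 136 CPM in the lean and 76.7, 82.9, 59.8 and 73.0 CPM in the obese mice, and no obese library reached a lean one. Its change was 0.21 (adjusted p = 0.575) in SAT and -1.17 (adjusted p = 0.000582) in VAT, and it differed by -1.33 ± 0.19 (SE; adjusted p = 0.000298). Acly, which splits citrate into acetyl-CoA, differed by -2.12 ± 0.32 (SE; adjusted p = 0.000793), and its diets overlapped in each tissue although its VAT change of -1.43 (adjusted p = 0.0176) passed.

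Acaca, acetyl-CoA carboxylase, had the widest estimate of the list at -4.29 ± 0.70 (SE; adjusted p = 0.00136). The entry counted is 1 of 11 and was scarcely present in SAT, at 0.248, 1.83, 0.0953 and 0 CPM in the lean and 1.54, 0.848, 0.414 and 0.463 CPM in the obese mice. Its VAT libraries held 19.9, 17.6, 9.54 and 6.08 CPM in the lean and 2.30, 2.06, 0.383 and 0.428 CPM in the obese mice. A second called entry, with a difference of -3.93, rose in SAT by 2.34 (adjusted p = 0.0142), and its VAT change of -1.47 did not pass (adjusted p = 0.0912). With its entries summed the difference was -4.80 (adjusted p = 0.000212). Aacs, acetoacetyl-CoA synthetase, was named after its values were seen, and its VAT change of -0.93 against 0.11 in SAT gave a difference of -0.93 ± 0.21 (SE; adjusted p = 0.0192). In the third pattern both tissues fell. Tkt, transketolase of the pentose phosphate route, changed by -0.50 (adjusted p = 0.0381) in SAT and by -1.40 (adjusted p = 2.84e-06) in VAT, with a difference of -0.85 ± 0.19 (SE; adjusted p = 0.0153). Leaving out 1 mouse ended the call of Tkt (without lean mouse 3 or obese mouse 2, adjusted p up to 0.0687).

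The entries counted for the regulators Thrsp, Mlxipl and Srebf1 were not called. Thrsp, a lipogenic nuclear protein, changed by -1.12 in SAT and -1.13 in VAT, and Mlxipl, the carbohydrate response factor ChREBP, by -1.17 and -1.05. Both fell in each tissue, and neither was called for a difference, with estimates of 0.02 and 0.04. Srebf1, the sterol and fatty acid regulator SREBP1, gave a difference of -0.50 with an adjusted p of 0.778. The entries counted are 1 of 6 for Srebf1, at a mean of 1.42 CPM, and 1 of 16, a noncoding one, for Mlxipl, so neither stands for its whole gene. Scd1 rose in both tissues, by 1.80 in SAT and 1.17 in VAT, and its difference of -0.81 missed the threshold (adjusted p = 0.0654).

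Promoter sequence was looked at for both lipogenic and antigen presentation genes, since members of each moved together. The RefSeq promoter table held 250 bases before each start, and 4 motifs were searched on both strands. They were CCAAT, with its reverse complement ATTGG, the letters that the factor NF-Y is known to bind, the longer run CTGATTGG, which overlaps it, CACGTG and TCACNCCAC. CCAAT or ATTGG was found in 34.46% of 27025 promoters and in 35.84% of 7927 promoters of tested genes. It was found in 11 of 20 promoters of the fatty acid synthesis list and in 11 of 12 of the cholesterol list. These lists had 22 and 17 tested genes. Of the matches, Fasn, Slc25a1 and Acss2 were called in the first list, and Idi1, Cyp51, Nsdhl and Insig1 in the second. The other called genes of these lists, such as Elovl6 and Me1, were not among the matches. CTGATTGG was in 2 of the 20 and 4 of the 12, beside 4.067% of all promoters and 5.45% of those of tested genes. CACGTG was in 2 and 3 of them, beside 6.046% and 7.973%, and TCACNCCAC in 1 and 1, beside 1.036% and 1.034%. Among called genes with a promoter, 53 of 115 that were lower in VAT and 30 of 85 that were higher in VAT held CCAAT or ATTGG. A stretch of 100 bases that holds the match is given for Fasn (chr11:120715380-120715479, minus strand, GRCm39) and for Insig1 (chr5:28276160-28276259, plus strand), 5′ to 3′, with each match in capitals.
Fasn: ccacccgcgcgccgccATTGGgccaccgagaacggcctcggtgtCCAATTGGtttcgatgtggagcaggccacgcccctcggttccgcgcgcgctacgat
Insig1: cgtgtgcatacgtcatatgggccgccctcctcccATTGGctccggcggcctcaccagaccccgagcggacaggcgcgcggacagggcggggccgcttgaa
In the Fasn stretch both orientations overlap in 1 of the capital runs. A match describes the letters in the window and was not tested as a binding site.

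Cholesterol synthesis and uptake genes made up the next group, and 7 of 17 tested were called, all of them lower in VAT, beside 1.46% of all genes called lower. Of the 17, 5 rose and 1 fell in SAT, and 1 rose and 4 fell in VAT, beside 6.89% and 5.03% of all genes in SAT and 7.99% and 4.39% in VAT. The median change was 0.41 in SAT and -0.04 in VAT, and the median difference was -0.65. The mouse medians were -0.28 to 0.12 in lean and -0.83 to -0.56 in obese mice. Insig1, which holds the sterol sensor complex in the endoplasmic reticulum, was at 833, 438, 628 and 725 CPM in the lean and 2932, 2745, 1758 and 2836 CPM in the obese mice in SAT. VAT levels were 759, 349, 512 and 555 CPM in the lean and 1030.2, 989, 897 and 1002 CPM in the obese mice. It rose in both tissues with no overlap, by 1.97 (adjusted p = 1.70e-06) in SAT and 0.85 (adjusted p = 0.00634) in VAT, and the difference was -1.08 ± 0.15 (SE; adjusted p = 0.000214). Nsdhl and Cyp51, which act on sterol intermediates after lanosterol is formed, rose in SAT alone, by 1.34 (adjusted p = 4.62e-07) and 0.97 (adjusted p = 0.000406), and differed by -1.13 (adjusted p = 0.000214) and -1.04 (adjusted p = 0.00329). Sqle, Idi1 and Acat2, of the steps before, fell in VAT alone, with differences of -0.90, -0.87 and -0.65. Without the mouse block the count was 3 of 17, with Sqle, Insig1 and Acat2 among those no longer called, Insig1 at an adjusted p of 0.0545. Leaving out 1 mouse ended the calls of Idi1 (without lean mouse 2 or 3 or obese mouse 4, adjusted p up to 0.0707) and Acat2 (without lean mouse 2, 3 or 4 or obese mouse 1, 2 or 4, adjusted p up to 0.106).

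Genes that take up, store and burn fatty acids gave 7 calls, each of them lower in VAT, beside 1.46% of all genes called lower. In the uptake list 2 of 12 tested were called. Acsl1, which activates long-chain fatty acids, was at 139, 98.6, 179 and 184 CPM in the lean and 379, 388, 272 and 193 CPM in the obese mice in SAT. In VAT the values were 128, 84.5, 165 and 155 CPM in the lean and 131, 124, 108 and 73.1 CPM in the obese mice, where the diets overlapped. Its SAT change of 1.04 (adjusted p = 0.00552) against -0.30 (adjusted p = 0.499) in VAT gave a difference of -1.30 ± 0.15 (SE; adjusted p = 1.32e-05). Cd36, a fatty acid transporter, rose in SAT alone (0.62), and differed by -0.77 ± 0.20 (SE; adjusted p = 0.0398). In triglyceride synthesis 2 of 13 were called, Agpat2, which makes phosphatidic acid, at -1.10 ± 0.24 (SE; adjusted p = 0.0164), and Gpd1, which supplies glycerol 3-phosphate, at -0.69 ± 0.15 (SE; adjusted p = 0.0148). The first rose in SAT and the second fell in VAT. In the droplet and lipolysis list 2 of 17 were called, the droplet coat protein Plin1 at -0.77 ± 0.19 (SE; adjusted p = 0.0320) and the droplet budding protein Fitm2 at -0.74 ± 0.16 (SE; adjusted p = 0.0148), and both fell in VAT alone. Without the block 0 genes of these 3 lists were called. Agpat2, Gpd1 and Plin1 were also not called by limma voom or with library totals alone. Over all alternatives their adjusted p reached 0.165, 0.247 and 0.173. Cd36 was not called with library totals alone or with length offsets. Leaving out 1 mouse ended the calls of Cd36 (without lean mouse 2, 3 or 4 or obese mouse 3 or 4, adjusted p up to 0.164), Agpat2 (without lean mouse 3 or obese mouse 2 or 4, adjusted p up to 0.0664), Gpd1 (without lean mouse 2 or 3 or obese mouse 2 or 4, adjusted p up to 0.0592), Plin1 (without lean mouse 3 or obese mouse 2 or 4, adjusted p up to 0.118) and Fitm2 (without lean mouse 2 or 3 or obese mouse 4, adjusted p up to 0.0628).

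The mitochondrial lists gave few calls, each of them lower in VAT, beside 1.46% of all genes called lower, so that 1 call in a list is no result about that list. Of 24 genes of branched-chain amino acid and propanoate breakdown, 8 fell in SAT and 12 in VAT, beside 5.03% and 4.39% of all genes, and Mmut, methylmalonyl-CoA mutase, was the 1 called (-0.78 ± 0.17 SE, adjusted p = 0.0166). Of 22 genes of the citrate cycle and pyruvate use, 1 fell in SAT and 9 in VAT, and 3 were called lower in VAT. These were Pcx, which makes oxaloacetate from pyruvate (-1.31 ± 0.22 SE, adjusted p = 0.00172), Dlat, a subunit of pyruvate dehydrogenase (-0.73 ± 0.14 SE, adjusted p = 0.00670), and Cs, citrate synthase (-0.72 ± 0.19 SE, adjusted p = 0.0492). A second called entry of Pcx, at a mean of 3.83 CPM, differed by -3.62 (adjusted p = 0.000105). That entry rose in SAT by 2.78 (adjusted p = 5.70e-05), and its VAT change of -0.84 did not pass (adjusted p = 0.127). The values below are for the first entry. Dlat was called under every alternative tried, Pcx was not called without the mouse block (adjusted p = 0.0741), and single mice left out ended the calls of Mmut (without lean mouse 3 or obese mouse 4, adjusted p up to 0.0754) and Cs (without lean mouse 1, 3 or 4 or obese mouse 2, 3 or 4, adjusted p up to 0.172). Of 19 fatty acid oxidation genes, Ehhadh, a peroxisomal enzyme, was the 1 called, with 11.7 ± 3.99 CPM in lean and 4.75 ± 0.738 CPM in obese VAT (mean ± SD, n = 4) and a difference of -1.61 ± 0.29 (SE; adjusted p = 0.00290). The test called 0 of 63 nuclear and 0 of 13 mitochondrial genes of the respiratory chain, whose median differences were 0.17 and -0.22. With library totals alone 5 of the 63 were called higher, at a median of 0.37, and 1 of the 13 was called lower with length offsets, with Scd1 left out, and without lean replicate 1 or obese replicate 2.

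Glucose use and insulin signaling gave few calls with shared sign. Hk2, hexokinase 2, was the 1 of 16 glycolysis genes called (-1.36 ± 0.24 SE, adjusted p = 0.00245). Beside 1.46% of all genes called lower, 1 call is no result about the list. Of the 16 estimates 14 lay below 0, beside 4843 of the 10290 over all genes. Of 14 insulin signaling genes 3 were called, beside 2.54% of all genes. Pik3r1, the regulatory subunit of phosphoinositide 3-kinase, was at 135, 154, 155 and 137 CPM in the lean and 171, 128, 98.8 and 155 CPM in the obese mice in SAT. The VAT libraries gave 174, 176, 222 and 172 CPM in the lean and 136, 99.7, 75.5 and 70.5 CPM in the obese mice, lower in each obese than in each lean library. Its difference was -0.91 ± 0.18 (SE; adjusted p = 0.00644). Mtor differed by -0.97 ± 0.22 (SE; adjusted p = 0.0211) and Gsk3b, whose counted entry stayed at or below 3.81 CPM, by -2.71 ± 0.69 (SE; adjusted p = 0.0390). In neither of these did a tissue pass by itself, and single mice left out ended the calls of Mtor (without lean mouse 2 or 3 or obese mouse 2 or 4, adjusted p up to 0.0912) and Gsk3b (without lean mouse 2, 3 or 4 or obese mouse 2, 3 or 4, adjusted p up to 0.174). The count of 3 fell to 1 without lean replicate 2, lean replicate 3, obese replicate 2 or obese replicate 4, with library totals alone, and with length offsets, on a list whose median length was 7766.5 bases, and to 0 without the block. For both lists the mouse medians of lean and obese mice did not overlap, at -0.15 to 0.21 and -0.49 to -0.23 for glycolysis, and at -0.13 to 0.11 and -0.46 to -0.29 for insulin signaling. Lists with few or 0 calls were also apart, among them the adipocyte markers and the interferon-stimulated genes. The latter lay at -0.39 to -0.03 in lean and -0.02 to 0.38 in obese mice. Such a gap is a description and no further support for a list.

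On the immune side most calls had the other sign, apart from Cxcl12 and Cd36 in the lists below. MHC class II molecules present peptides to helper T cells, and 5 of 13 tested genes of this list were called higher in VAT and 0 lower, beside 1.08% of all genes called higher. Of the 13, 3 rose in SAT and 11 rose in VAT, beside 6.89% and 7.99% of all genes, with medians of 0.34 and 1.51 and a median difference of 1.05. H2-Aa, an alpha chain (chr17:34493404-34506798), was at 574, 515, 446 and 587 CPM in the lean and 675, 508, 783 and 649.5 CPM in the obese mice in SAT, where the diets overlapped. VAT held 611, 664, 485 and 659 CPM in the lean and 1256, 1430.0, 1485 and 1994 CPM in the obese mice, with each obese library above each lean one. It rose by 1.35 (adjusted p = 3.05e-06) in VAT, against 0.30 (adjusted p = 0.209) in SAT, and differed by 1.05 ± 0.17 (SE; adjusted p = 0.00104). H2-Eb1, a beta chain, differed by 0.99 ± 0.16 (SE; adjusted p = 0.00128), and H2-Ab1, the partner of H2-Aa, by 1.11 ± 0.17 (SE; adjusted p = 0.000681). These 3 genes lie side by side on chromosome 17, with 5010 bases between H2-Ab1 and H2-Aa. H2-Aa and H2-Eb1 are on opposite strands, and the GENCODE record of H2-Eb1 begins at 34504236, inside H2-Aa and upstream of the RefSeq start used for its promoter. Cd74, the invariant chain, differed by 0.86 ± 0.20 (SE; adjusted p = 0.0208), and its VAT minus SAT values overlapped between the diets. Ifi30, a thiol reductase of the antigen compartment, rose in both tissues and differed by 0.81 ± 0.20 (SE; adjusted p = 0.0381). Calls in the list fell to 3 without the block and without each of lean replicates 2, 3 and 4 and obese replicate 4, with Cd74 and Ifi30 lost in each of these. B cells also carry MHC class II, and summed B and plasma cell markers were 130 to 847 CPM in lean VAT and 806 to 2037 CPM in obese VAT, whose part in these values was not tested.

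CCAAT or ATTGG was present in 7 of 10 promoters of the MHC class II list, beside 35.84% of those of tested genes. Of these 7, only H2-Aa and H2-Eb1 were called. The longer run CTGATTGG was in 4 of those 10 (H2-Aa, H2-Eb1, H2-Eb2 and H2-Oa), beside 4 of 12 in the cholesterol list, 4.067% of all promoters and 5.45% of those of tested genes. CACGTG was in 1 of the 10 and TCACNCCAC in 0. The last 100 bases before the start are given for H2-Aa (chr17:34506798-34506897, minus strand, GRCm39) and H2-Eb1 (chr17:34524741-34524840, plus strand), 5′ to 3′, with CCAAT or ATTGG in capitals, since both hold the longer run and both were called.
H2-Aa: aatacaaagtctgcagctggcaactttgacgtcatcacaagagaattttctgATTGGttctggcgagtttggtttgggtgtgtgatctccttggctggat
H2-Eb1: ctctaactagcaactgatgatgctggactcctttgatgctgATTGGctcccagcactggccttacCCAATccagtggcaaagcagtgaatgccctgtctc

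Of 16 tested pan-macrophage and resident macrophage markers, 9 rose in SAT and 12 in VAT, beside 6.89% and 7.99% of all genes. For the difference, 3 were called higher in VAT, beside 1.08% of all genes. C1qb, a subunit of complement C1q, was at 135, 119, 98.6 and 157 CPM in the lean and 227, 187, 204 and 173 CPM in the obese mice in SAT. In VAT it was at 219.7, 183, 166 and 176 CPM in the lean and 571, 487, 434 and 588 CPM in the obese mice, and the diets were apart in both tissues. Its rise was 0.64 in SAT and 1.49 in VAT, with a difference of 0.83 ± 0.17 (SE; adjusted p = 0.00870). Tyrobp and Fcer1g, adaptors of activating receptors, differed by 1.07 ± 0.25 (SE; adjusted p = 0.0210) and 0.94 ± 0.19 (SE; adjusted p = 0.00777). The summed markers were 1596 to 2319 CPM in lean SAT, 2538 to 3574 CPM in obese SAT, 2842 to 3703 CPM in lean VAT and 6094 to 8774 CPM in obese VAT. Single mice left out ended the call of Tyrobp (without lean mouse 4 or obese mouse 2 or 4, adjusted p up to 0.112). The count of 3 became 2 without lean replicate 4, obese replicate 2 or obese replicate 4, and 5 without obese replicate 3.

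Lipid-associated macrophages are known by genes of lipid uptake and lysosomes, and 4 of 17 tested markers were called higher in VAT and 1, Cd36, lower, beside 1.08% and 1.46% of all genes. Gpnmb, a transmembrane glycoprotein of these cells, was at 25.9, 27.3, 31.8 and 44.03 CPM in the lean and 45.8, 42.6, 78.5 and 51.6 CPM in the obese mice in SAT, where the diets overlapped. Its VAT libraries held 25.6, 19.9, 33.1 and 26.4 CPM in the lean and 228, 246, 199.7 and 1067 CPM in the obese mice, with obese replicate 4 well above the rest. It rose in VAT alone (4.06, adjusted p = 1.48e-06), and the difference of 2.92 ± 0.40 (SE; adjusted p = 0.000214) was called under every alternative, each left-out mouse included. Itgax, the integrin CD11c, was at 22.9, 11.4, 9.05 and 28.1 CPM in the lean and 43.2, 38.5, 62.2 and 41.0 CPM in the obese mice in SAT. VAT levels were 19.2, 18.1, 11.3 and 16.4 CPM in the lean and 128, 109.2, 93.1 and 235 CPM in the obese mice, and the difference was 1.55 ± 0.33 (SE; adjusted p = 0.0133). Atp6v0d2, a proton pump subunit, was at 1.82, 0.704, 1.52 and 2.34 CPM in the lean and 8.62, 8.79, 13.5 and 10.9 CPM in the obese mice in SAT. In VAT the values were 0, 0.598, 1.07 and 0.663 CPM in the lean and 19.5, 23.4, 18.1 and 55.8 CPM in the obese mice, and the difference of 2.36 ± 0.55 (SE; adjusted p = 0.0225) was smaller (adjusted p = 0.122) with its 2 entries summed. Lgals3, galectin-3, rose in both tissues and differed by 1.45 ± 0.38 (SE; adjusted p = 0.0449). Single mice left out ended the calls of Itgax (without lean mouse 4 or obese mouse 4, adjusted p up to 0.0688), Atp6v0d2 (without lean mouse 3 or 4 or obese mouse 4, adjusted p up to 0.114) and Lgals3 (without lean mouse 3 or 4 or obese mouse 1, 3 or 4, adjusted p up to 0.181). The 5 calls of the list became 2 without lean replicate 3, 1 without lean replicate 4 or obese replicate 4, and 3 without obese replicate 3 or without the block. Summed over all 20 markers the level was 47760 to 52090 CPM in lean and 41230 to 44770 CPM in obese SAT, and 24200 to 33050 CPM in lean and 22520 to 24520 CPM in obese VAT. Lpl, lipoprotein lipase, which adipocytes also make in abundance, changed by -0.40 in SAT and -0.59 in VAT, and both changes passed. Leaving out the abundant Lpl and Ctsd, the summed markers were 336 to 447 CPM in lean SAT, 616 to 715 CPM in obese SAT, 313 to 423 CPM in lean VAT and 759 to 2180 CPM in obese VAT.

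Chemokines and cytokines followed, with 4 of 26 tested called higher in VAT and 1 lower, beside 1.08% and 1.46% of all genes. In SAT 5 rose and 1 fell, and 15 rose in VAT, beside 6.89% of all genes that rose in SAT, 5.03% that fell there and 7.99% that rose in VAT. Ccl8, a chemoattractant of monocytes, was at 21.98, 13.5, 15.6 and 31.1 CPM in the lean and 51.3, 48.7, 44.2 and 57.7 CPM in the obese mice in SAT. The VAT libraries gave 12.8, 6.28, 8.79 and 9.39 CPM in the lean and 75.1, 40.7, 53.0 and 88.5 CPM in the obese mice. The diets were apart in both tissues, the rises were 1.32 and 2.89, and the difference was 1.44 ± 0.25 (SE; adjusted p = 0.00207). Ccl7 and the eotaxin Ccl11, its neighbors on chromosome 11, rose in VAT alone and differed by 1.14 ± 0.25 (SE; adjusted p = 0.0159) and 0.69 ± 0.17 (SE; adjusted p = 0.0317). Ccl19, a ligand of CCR7 that lymph node stroma makes, stayed at or below 0.572 CPM in SAT and in lean VAT, so its fitted difference rests on few counts there. In obese VAT it reached 2.30, 6.77, 2.40 and 0.685 CPM, and its difference was 4.96 ± 1.11 (SE; adjusted p = 0.0182). Cxcl12, the ligand of CXCR4, was the 1 called lower, but its entries disagreed, at -0.999 for the entry counted and 0.75 for a second one, and their sum gave -0.27 (adjusted p = 0.465). Single mice left out ended the calls of Ccl7 (without lean mouse 3 or 4 or obese mouse 2, adjusted p up to 0.0646), Ccl11 (without lean mouse 1 or 4 or obese mouse 2, 3 or 4, adjusted p up to 0.116) and Ccl19 (without lean mouse 3, adjusted p = 0.180). The 5 calls fell to 2 without the block and without obese replicate 2, and to 3 without lean replicate 3 or lean replicate 4.

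B cell transcripts were present in VAT of both diets and scarce in SAT. Summed B and plasma cell markers were 14.2 to 54.1 CPM in SAT, 130 to 847 CPM in lean VAT and 806 to 2037 CPM in obese VAT, where lean replicate 1 lay above obese replicate 3. Lymph node stroma markers were also higher in VAT, at 76.5 to 265 CPM against 3.38 to 20.6 CPM in SAT, and their part in the B cell values was not tested. Of 11 tested B cell markers 3 were called higher in VAT, beside 1.08% of all genes. Pax5, the factor that fixes B cell identity, was at 4.87, 3.24, 2.00 and 3.83 CPM in the lean and 2.85, 2.12, 4.90 and 2.16 CPM in the obese mice in SAT. VAT held 54.4, 51.2, 9.33 and 28.5 CPM in the lean and 80.5, 108, 67.1 and 135 CPM in the obese mice, and it differed by 1.74 ± 0.41 (SE; adjusted p = 0.0243). Jchain, which joins secreted IgM and IgA, differed by 2.19 ± 0.53 (SE; adjusted p = 0.0290), and Blk, a kinase of the B cell receptor, by 1.78 ± 0.43 (SE; adjusted p = 0.0281). None of the 3 was called without the block, by limma voom, without lean replicate 3 or 4, or without obese replicate 2 or 4. T cell markers gave 0 calls among 11 tested by edgeR, with a median difference of 0.37, beside 2.54% of all genes called.

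Adipokines and regulators of the adipocyte gave 2 calls of each sign among 19, beside 1.08% of all genes called higher and 1.46% lower. Sfrp5, a secreted Wnt inhibitor, was at 689, 427, 539 and 547 CPM in the lean and 316, 394, 379 and 368 CPM in the obese mice in SAT. In VAT it was at 158, 111, 150.01 and 196 CPM in the lean and 245, 203, 246 and 167 CPM in the obese mice, with overlap. It fell in SAT (-0.60, adjusted p = 0.0191), and its VAT change of 0.48 did not pass (adjusted p = 0.0612), which gave a difference of 1.07 ± 0.18 (SE; adjusted p = 0.00158). Nnat, neuronatin, also fell in SAT alone and differed by 0.89 ± 0.18 (SE; adjusted p = 0.00827). Beside Adipor2, Klb, the co-receptor of FGF21, was lower in VAT. The entry counted differed by -0.67 ± 0.17 (SE; adjusted p = 0.0407), and the sum of both entries by -0.99 (adjusted p = 0.00266). The other entry of the gene, at a mean of 49.3 CPM, differed by -1.43 (adjusted p = 0.00222), with changes of 0.55 in SAT (adjusted p = 0.0713) and -0.82 in VAT (adjusted p = 0.00922). For the entry counted, 11 alternatives ended the call. Among them was the loss of single mice for Klb (without lean mouse 2, 3 or 4 or obese mouse 1, 2 or 4, adjusted p up to 0.151). Adiponectin (Adipoq) changed in VAT by -0.58 (adjusted p = 0.0191), and its difference of -0.41 was not called (adjusted p = 0.202). Leptin (Lep) gave a difference of 0.37 (adjusted p = 0.36).

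In the renin-angiotensin list Enpep was 1 of 2 called among 10, beside 2.54% of all genes. The other was Agt, angiotensinogen, which fell in both tissues and less in VAT. Its level was 8.34, 5.63, 2.95 and 3.40 CPM in the lean and 0.385, 0, 0.138 and 0.154 CPM in the obese mice in SAT, so that 1 obese library held 0 counts and the others few. Its VAT libraries held 18.6, 10.3, 9.33 and 12.8 CPM in the lean and 2.68, 2.06, 3.16 and 1.71 CPM in the obese mice. The fitted difference was 2.40 ± 0.55 (SE; adjusted p = 0.0209), its VAT minus SAT values overlapped between the diets, and its size and direction depend on how a level near 0 is handled: the mean within-mouse difference was 0.82 with a pseudocount of 0.5 and -0.0688 with a pseudocount of 2. The call was lost for Agt (without lean mouse 2 or obese mouse 2, 3 or 4, adjusted p up to 0.0992). It was also lost without the mouse block and by limma voom.

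Lists of membrane, vessel, matrix and organelle genes gave 1 or 2 calls each, beside 2.54% of all genes called, so the calls below are values of single genes and not results about the lists. Of 7 caveola genes, Cav1, the main coat protein, fell in VAT alone and differed by -0.77 ± 0.16 (SE; adjusted p = 0.0117), and Cavin4, known from muscle, fell in VAT alone and differed by -1.90 ± 0.44 (SE; adjusted p = 0.0227). Of 11 endothelial markers, Vwf, which tethers platelets, rose in SAT alone (1.64, adjusted p = 0.000130) and differed by -1.32 ± 0.31 (SE; adjusted p = 0.0245), and the tight junction gene Cldn5 differed by -0.82 ± 0.21 (SE; adjusted p = 0.0424). Of 23 genes of endoplasmic reticulum chaperones, Creld2 and Manf, both known as targets of the unfolded protein response, rose in VAT alone and differed by 1.05 ± 0.24 (SE; adjusted p = 0.0210) and 0.78 ± 0.19 (SE; adjusted p = 0.0275). In the matrix list of 26, Thbs1, thrombospondin 1, was lower in VAT (-1.66 ± 0.30 SE, adjusted p = 0.00290), and Loxl1, a crosslinking enzyme, was higher (0.82 ± 0.21 SE, adjusted p = 0.0449). Ctsk, cathepsin K, was the 1 of 33 lysosomal genes called, at 29.5, 40.1, 42.0 and 53.4 CPM in VAT of lean mice against 83.6, 104, 100.1 and 419 CPM in that of obese mice, where replicate 4 stood above the rest, with a difference of 1.63 ± 0.32 (SE; adjusted p = 0.00677). Dpt, a matrix protein of fibroblasts, was 1 of 11 fibroblast markers called (0.95 ± 0.18 SE, adjusted p = 0.00409), and neither of its tissues passed. Kcnk3, a potassium channel of the brown and beige list, differed by -0.85 ± 0.21 (SE; adjusted p = 0.0295), and Ly86, the partner of CD180, was the 1 of 16 Toll-like receptor genes called (0.94 ± 0.24 SE, adjusted p = 0.0381). In these lists, the calls that 1 mouse decided were Cavin4 (without lean mouse 2 or 3 or obese mouse 3 or 4, adjusted p up to 0.1297), Vwf (without lean mouse 3 or 4 or obese mouse 2 or 3, adjusted p up to 0.103), Cldn5 (without lean mouse 2, 3 or 4 or obese mouse 2 or 4, adjusted p up to 0.139), Creld2 (without lean mouse 3 or 4 or obese mouse 1 or 4, adjusted p up to 0.0879), Manf (without lean mouse 3 or 4 or obese mouse 1, 2 or 4, adjusted p up to 0.118), Loxl1 (without lean mouse 3 or 4 or obese mouse 1, 3 or 4, adjusted p up to 0.191), Kcnk3 (without lean mouse 1, 2 or 3 or obese mouse 2 or 4, adjusted p up to 0.138) and Ly86 (without lean mouse 2, 3 or 4 or obese mouse 1, 2 or 4, adjusted p up to 0.145).

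In the clustered protocadherins 2 of 41 tested were called, those named above, beside 2.54% of all genes, so the count is no result about the family. Of the 41 estimates 36 lay below 0, beside 4843 of the 10290 over all genes. In SAT 8 rose, and 2 rose in VAT and 3 fell in VAT, beside 6.89%, 7.99% and 4.39% of all genes. Their median difference was -0.52, and the mouse medians were 0.20 to 0.58 in lean and -0.03 to 0.11 in obese mice. The gamma members share their last exons and the family is alike in sequence, so the counts of its members are not independent. All 14 proliferation genes had estimates above 0 (median 0.39), beside 5447 of the 10290 over all genes. Of the 14, 11 rose in VAT and 4 in SAT, beside 7.99% and 6.89% of all genes, and edgeR called 0 for the difference. Of 23 interferon-stimulated genes 20 estimates lay above 0, beside the same 5447 of 10290, with a median of 0.30, and again 0 were called. Marker lists of other cells gave few calls, beside 2.54% of all genes called, so 1 call is no result about a list. Lymph node stroma had 1 of 6 (Ccl19), adipocytes 1 of 11 (Plin1), and brown and beige fat 1 of 7 (Kcnk3). By edgeR 0 were called of 7 smooth muscle, 10 mesothelial, 8 intestinal, 4 pancreatic, 4 keratinocyte and 6 mast cell markers. Summed intestinal markers were 82.0 and 73.9 CPM in lean VAT replicates 2 and 4 and 14.7 to 29.5 CPM in the other libraries. Over the 12 lists with 0 calls by edgeR, 26 of 170 tested genes had an unadjusted p below 0.05, beside 1953 of all 13288 transcripts. Of the 170, 1 was called by DESeq2 and 1 by limma voom.

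**Figure D3:**
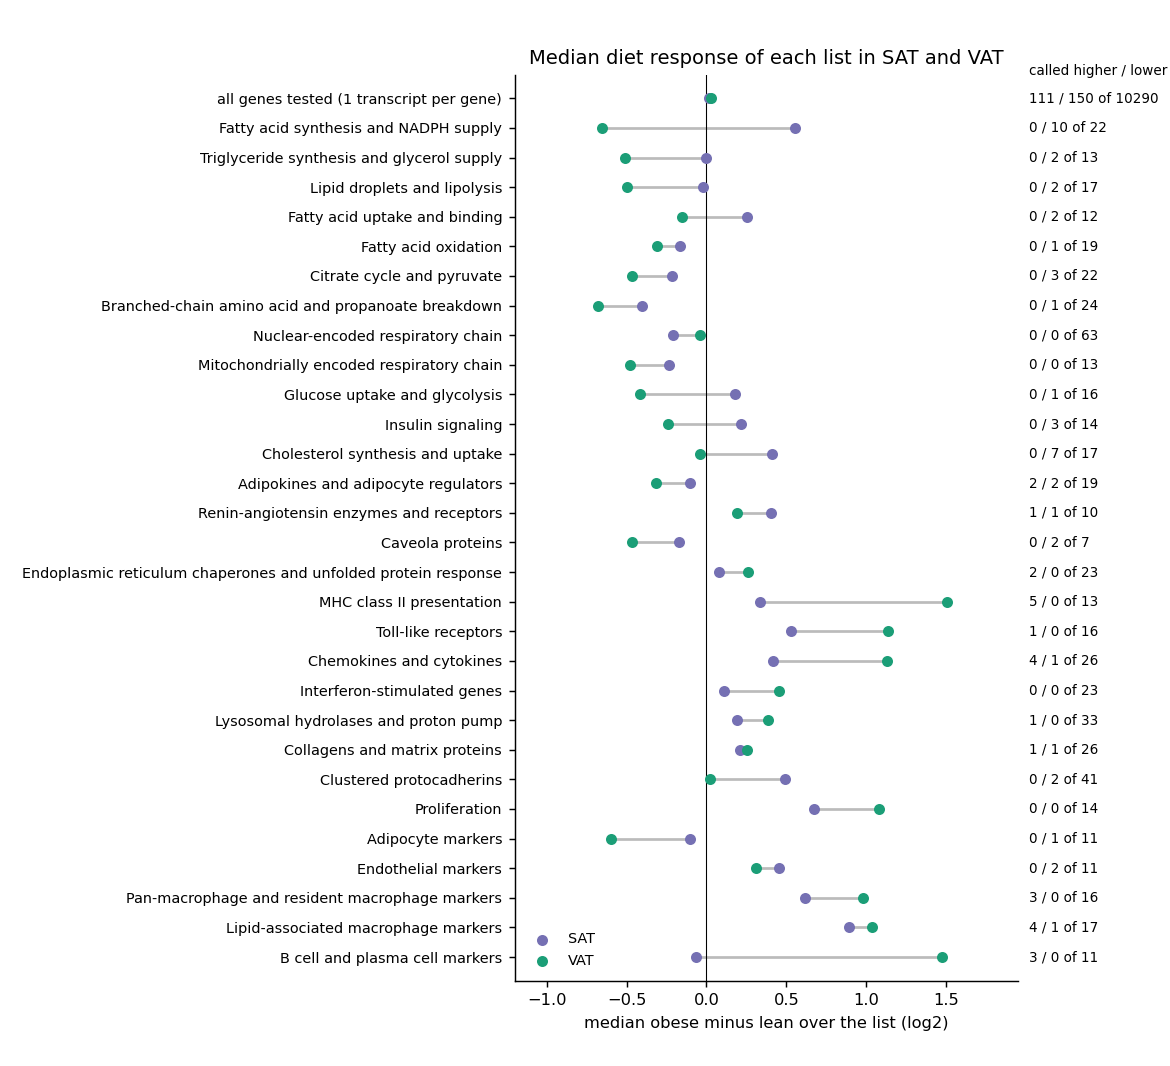
Median obese minus lean change of each gene list (log2) in SAT (purple) and VAT (green), with the number of genes called higher and lower in VAT of those tested at the right. The fatty acid synthesis list lies on both sides of 0, at 0.55 in SAT and -0.65 in VAT, and the MHC class II list lies at 0.34 and 1.51.

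**Figure D4:**
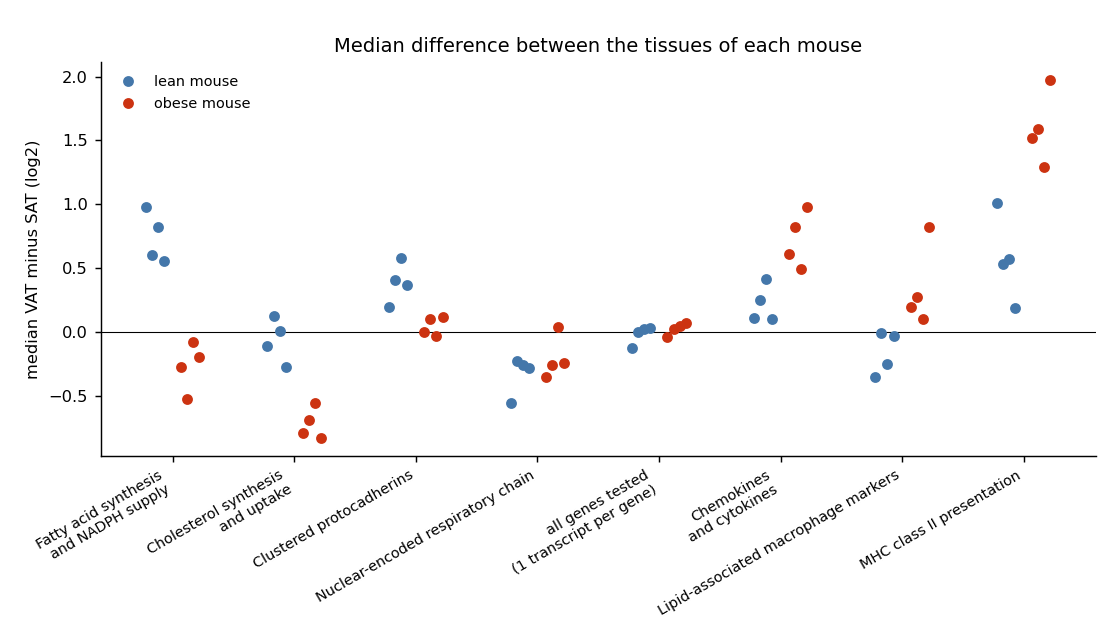
Median VAT minus SAT value (log2) of 8 gene sets in each of the 4 lean (blue) and 4 obese (red) mice. The fatty acid synthesis medians lie at 0.56 to 0.98 in lean and at -0.53 to -0.08 in obese mice, the MHC class II medians at 0.19 to 1.01 and 1.29 to 1.97, and those of all genes and of the respiratory chain overlap.

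The 29 transcripts that changed the same way in both tissues were told apart by which tissue moved further. Of these, 13 rose further in VAT, and beside those above they include Slc15a3, a lysosomal peptide transporter, at 7.85, 6.89, 5.62 and 12.8 CPM in the lean and 16.9, 12.6, 17.0 and 11.3 CPM in the obese mice in SAT. VAT levels were 6.41, 8.85, 6.11 and 8.62 CPM in the lean and 65.5, 45.9, 36.4 and 75.5 CPM in the obese mice, and the difference was 1.98 ± 0.31 (SE; adjusted p = 0.00104). Atf3, a stress-induced transcription factor, differed by 1.58 ± 0.29 (SE; adjusted p = 0.00318). Nckap1l, an actin regulator of blood cells, and Clec12a, a lectin of myeloid cells, differed by 1.00 and 0.95, and single mice left out ended the calls of Nckap1l (without lean mouse 3 or obese mouse 4, adjusted p up to 0.0739) and Clec12a (without lean mouse 3 or obese mouse 2 or 4, adjusted p up to 0.0695). Another 6 rose further in SAT. Gprin3, which binds G proteins, was at 35.8, 40.1, 29.4 and 34.2 CPM in the lean and 179.5, 251, 225 and 259 CPM in the obese mice in SAT. In VAT the values were 80.7, 86.9, 69.5 and 73.6 CPM in the lean and 103, 152, 177 and 106 CPM in the obese mice, and it differed by -1.95 ± 0.18 (SE; adjusted p = 1.18e-06). Sgk1, a kinase induced by glucocorticoids, rose by 2.12 in SAT and 1.03 in VAT, and Fstl1, a secreted glycoprotein, differed by -0.79 ± 0.16 (SE; adjusted p = 0.0104). Leaving out 1 mouse ended the call of Fstl1 (without lean mouse 2 or 3, adjusted p up to 0.0600).

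The other 10 fell in both tissues. Hcar1, the lactate receptor of adipocytes, fell further in VAT, with a change of -1.75 against -0.86 in SAT, and the difference was -0.83 ± 0.17 (SE; adjusted p = 0.00713). Nat8l, which makes N-acetylaspartate, gave -1.92 in VAT and -1.07 in SAT, and the transcript Gm454 -2.76 and -1.68. The VAT minus SAT values of the diets overlapped for both. The rest, 6 in number, fell further in SAT. Cyp2f2, a cytochrome P450, was at 53.0, 128, 184 and 125 CPM in the lean and 7.62, 3.81, 3.45 and 3.39 CPM in the obese mice in SAT. The VAT libraries gave 7.05, 10.1, 25.6 and 9.72 CPM in the lean and 1.53, 2.15, 2.49 and 1.03 CPM in the obese mice, and the difference was 2.195 ± 0.34 (SE; adjusted p = 0.000873). Thbd, thrombomodulin, an anticoagulant receptor of endothelium, changed by -1.68 in SAT and -0.81 in VAT and differed by 0.87 ± 0.14 (SE; adjusted p = 0.00114). Slc1a3, a glutamate transporter, and the noncoding A530020G20Rik differed by 0.71 and 0.82. Leaving out 1 mouse ended the calls of Nat8l (without lean mouse 2 or obese mouse 2 or 4, adjusted p up to 0.0889), Gm454 (without lean mouse 3 or obese mouse 4, adjusted p up to 0.120) and Slc1a3 (without lean mouse 2 or 3 or obese mouse 3, adjusted p up to 0.0751). Nat8l, Gm454 and Slc1a3 were also not called without the mouse block or by limma voom. Over all alternatives their adjusted p reached 0.163, 0.183 and 0.188.

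In several of the widest differences only 1 tissue passed by itself. Hephl1, a copper-dependent ferroxidase (chr9:14963137-15023415), had the smallest adjusted p. It was at 4.96, 1.69, 1.43 and 3.40 CPM in the lean and 47.5, 45.4, 28.5 and 36.3 CPM in the obese mice in SAT. VAT held 28.8, 15.02, 11.8 and 14.5 CPM in the lean and 13.4, 16.3, 9.20 and 13.9 CPM in the obese mice, with overlap. It rose by 3.75 (adjusted p = 1.26e-07) in SAT against -0.29 (adjusted p = 0.610) in VAT, and the difference was -4.25 ± 0.27 (SE; adjusted p = 2.02e-09). Aldh1a2, which makes retinoic acid, rose in VAT alone, from 106 ± 16.03 to 198 ± 34.7 CPM (mean ± SD, n = 4), and differed by 1.46 ± 0.23 (SE; adjusted p = 0.00104). Tmem179, a membrane protein, fell in VAT alone and differed by -1.31 ± 0.17 (SE; adjusted p = 7.83e-05).

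The mouse block decided further calls. Of the 95 named transcripts, 51 were not called without the block. Without it Hcar1, Sgk1 and Cyp2f2 were not called, nor were they by limma voom, and the larger of both adjusted p was 0.179 for Hcar1, 0.252 for Sgk1 and 0.154 for Cyp2f2. Acly, Hk2, Pik3r1, Thbs1, Ctsk, Dpt, Nnat, Tmem179 and A530020G20Rik also were not called without the block, at adjusted p of 0.0501 (Acly, Thbs1, Ctsk and Tmem179) to 0.119 (Dpt). Nor were Mmut, Cs, Klb, Agt, Vwf, Cldn5, Creld2, Manf and Loxl1, given above with left-out mice. The same held for Kcnk3, Ly86, Nckap1l, Clec12a, Fstl1, Nat8l, Gm454 and Slc1a3.

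For most calls, SAT and VAT stood further apart in the obese than in the lean mice. The VAT to SAT distance was wider in obese mice for 220 of the 288 called transcripts (76.4%), beside 58.5% of all tested. Of the 288, 173 differed between the tissues in obese mice alone, 37 in lean mice alone, 52 in both diets in the same order and 25 in both diets in opposite order, and 1 in neither. Without 1 mouse at a time the share with a wider distance was 67.9% to 79.2%.

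The difference also moved with gene length. Over 9492 genes with a length (92.2% of those tested), Spearman's rho between length and the difference was -0.21, a description across genes that share libraries. In eighths by length, the median difference went from 0.25 in the shortest to -0.14 in the longest genes. Calls went with it: 24 higher and 6 lower in the shortest eighth, and 6 higher and 45 lower in the longest. In single mice rho between length and VAT minus SAT was 0.03 to 0.09 in the lean and -0.16 to -0.03 in the obese. With length offsets, 236 were called, 210 of which were among the 288, 10 of the 22 fatty acid synthesis genes were called lower, and 3 of 13 MHC class II genes were called. Median length was 5035 bases for the first list and 1873 bases for the second. The part of length in single results beyond these values was not tested.

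**Figure D5:**
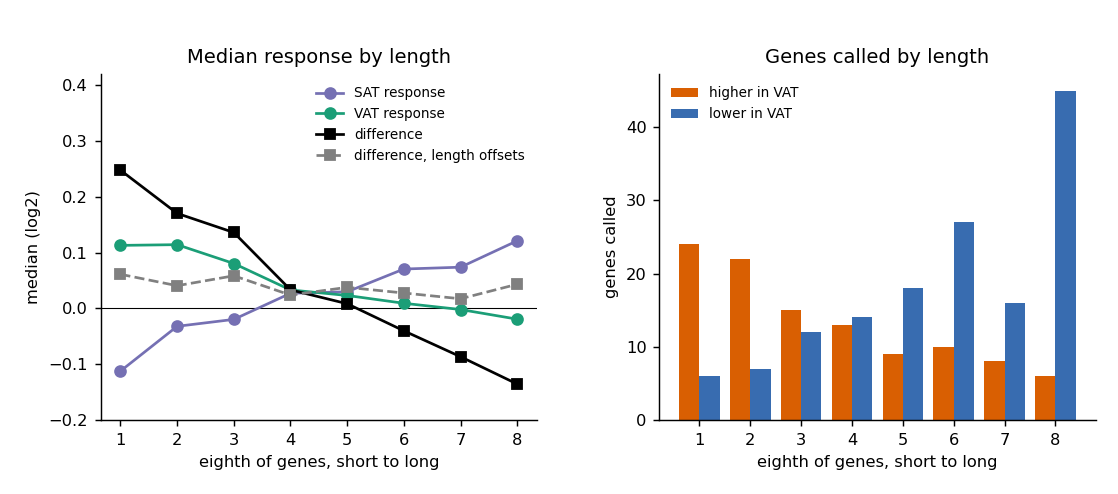
Genes grouped in eighths by transcript length, with the median diet response (log2) of SAT, of VAT and their difference at the left, and the number of genes called higher and lower in VAT at the right. Medians of the difference (black) fall from 0.25 to -0.14, and with length offsets (gray) they lie at 0.02 to 0.06.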

How the data were processed

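RNA from SAT and VAT of 8 mice was sequenced by the authors, and, per the labels, reads were trimmed with Trim Galore 0.6.6 (the study's methods give another version), aligned with HISAT2 2.2.0 to GRCm39 and counted per RefSeq transcript with HTSeq 0.13.5. How reads shared by transcripts, or strand, were counted is not given in the sources used here. The deposited table holds whole read counts and CPM for 130343 entries in 16 libraries, and the CPM equal the counts scaled to each library total. Here the counts were used. Entries above 1 CPM in at least 3 libraries (13288) were fitted with edgeR 4.0.16 (R 4.3.3, limma 3.58.1), TMM factors and the quasi-likelihood test. The difference was fitted with mouse as a block, and the diet response of each tissue in a fit of the 4 groups without it. Biological coefficients of variation were 0.178 and 0.211. SAT and VAT of 1 number come from the same mouse by the study's methods, and their residuals correlated at -0.02 to 0.27 (median 0.13, n = 8 pairs), beside -0.23 to 0.20 (median -0.06, n = 24) between mice of 1 diet. Within-mouse values are log2(TMM CPM + 0.5), on which 4 against 4 mice give an exact two-sided permutation p of 0.0286 at the smallest. Genes were named by rule: 11 genes that the study lists as opposite, the 10 smallest adjusted p in each direction, calls with both tissues passing (at most 20 a class), and at most 8 called members of each of 41 hand-written lists (889 names, 883 matched). Some called list members are not reported here. The members and lists were chosen with earlier results of these data known. Lengths and positions are from GENCODE vM39. The test was checked on simulated data, and DESeq2 1.42.0, limma voom, other scalings, filters and left-out mice were the alternatives.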

Additional observations from a re-analysis of the deposited data

Results flagged for a closer look

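The interaction of tissue and diet was called for 288 transcripts. It was called for 14 genes whose tissues changed in opposite directions, with differences (log2) of -2.26 for Elovl6, -2.18 for Enpep, -2.26 for Me1, 4.93 for Trdn, 3.36 for Hspb7, -1.30 for Slc25a1, -1.38 for Adipor2, -1.17 for Megf9, -1.61 for Dusp4, -2.40 for Kcnj15, -1.24 for Pcdhb22, 2.13 for Gm7609, -1.89 for Utrn and -1.89 for Pcdhga8. Each was tested by the interaction term itself.

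Single mice stood apart from the other 3 of their diet in VAT minus SAT for 7 of 190 groups examined with Dixon's test, and chance flags about 1 in 20 groups. Insig1 was highest in obese mouse 3 (-0.97), Nat8l highest in obese mouse 3 (0.10), and Pik3r1 lowest in obese mouse 4 (-1.13). Gm7609 was lowest in lean mouse 4 (0.10), Ccl19 lowest in lean mouse 3 (-0.59), Cavin4 lowest in lean mouse 1 (-1.82), and Ifi30 highest in lean mouse 2 (1.03).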

How the results depend on the processing

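Of the 95 named transcripts, 37 were called under every alternative in which they were tested, and 0 of the fitted differences changed sign. Without the mouse block (no pairing) 128 transcripts were called, 46 higher and 82 lower in VAT, 123 of them among the 288, and 11 same-sign calls, while all 14 opposite genes were called. DESeq2 called 468, with 191 higher and 277 lower. Library totals alone, chosen after seeing the data, called 473, with 369 higher and 104 lower, and Scd1 left out, also chosen then, 334 with 101 higher and 233 lower. With no filter on low counts 350 were called, 101 higher and 249 lower. Leaving out 1 mouse gave 134 to 403 calls, 45 to 138 higher, 89 to 265 lower, 8 to 13 opposite and 14 to 36 same sign. All calls moved by over 1.5 times without lean replicate 2 (185), lean replicate 3 (152) or obese replicate 4 (134), higher calls without lean replicate 3 (52), lean replicate 4 (58) or obese replicate 4 (45), and lower calls without lean replicate 1 (265), lean replicate 2 (101), lean replicate 3 (100) or obese replicate 4 (89). Opposite calls were 8 without lean replicate 2 or obese replicate 3, and same-sign calls 15 without lean replicate 2, 14 without lean replicate 3 or obese replicate 4, and 16 without obese replicate 2. With a pseudocount of 2, the mean within-mouse difference of Agt turned from 0.82 to -0.0688. With CPM as deposited, 1605 transcripts had diets that did not overlap, beside 1233. The causes were not tested. Depth limits low entries most in lean VAT replicate 1, where 3 counts are 2.39 CPM.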

Other observations

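Cytosolic ribosomal proteins, a group added after the values were seen, moved with the diet in VAT. Of 74 tested genes, 10 were called higher in VAT and 0 lower, beside 1.08% of all genes called higher. In VAT 31 of the 74 rose and 0 fell, beside 7.99% and 4.39% of all genes, while 0 passed in SAT, beside 6.89% that rose and 5.03% that fell there, and the median change was 0.42 in VAT and -0.08 in SAT. Among the 10 called were Rpl37, Rpl13a and Rps28. The mouse medians of VAT minus SAT were -0.07 to 0.19 in the lean and 0.25 to 0.76 in the obese mice. These are short genes (median length 1960 bases) with near-identical copies elsewhere in the genome, and with length offsets 6 were called. The part of length and of shared reads was not tested.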
